A study of Mus musculus with 12 samples.

Results

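The genes of the microtubule motors, kinesin, cytoplasmic dynein and dynactin, were followed in ribosome pull-downs from cultured mouse sensory neurons. Members were all rows whose gene symbol begins with Kif and a digit, Kifc, Klc and a digit, Dync, Dynl, or Dctn and a digit. This gave 55 of the 14177 genes listed. All 55 were in the table for the libraries labelled Cre-, and 40 were also in the table for those labelled Cre+, where every gene had 5 or more counts in each library. The question was how the motor mRNAs in the pull-down compared with those in the input, motor class by motor class, and whether that enrichment differed between the genotype labels.

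Kinesins are a large family of ATP-driven motors, most of which walk toward the plus ends of microtubules, which in an axon point to its tip. Cytoplasmic dynein walks the opposite way and carries cargo from the axon to the cell body, and it needs the dynactin complex to run over long distances. Sensory neurons of the dorsal root ganglion (DRG) have some of the longest axons of the body, and mutations in several of these motors are known to affect peripheral or motor axons.

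In the RiboTag method the ribosomal protein Rpl22 carries an HA tag once Cre recombinase has acted, so that an HA antibody pulls down ribosomes with their mRNAs from the cells that expressed Cre. Both genotypes were homozygous for the RiboTag allele, Rpl22HA/HA, and were labelled Runx3-Cre+ or Runx3-Cre-, the Runx3 driver being active in proprioceptive and some other sensory neurons. The animals were male and, by the labels, 3 to 6 months old, while the methods of the study name younger adults for its pull-downs. Neurons of all DRG were purified on a Percoll cushion, 5 mice were pooled per sample and the cells were kept 24 h in culture. Each genotype label had 3 HA pull-downs and 3 inputs, an input being 10% of the lysate. Samples were thus pools of animals, and the p-values measure the spread between pools.

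Total counts per library were 9957913 to 13941113 in the inputs labelled Cre+, 8886308 to 11457315 in the pull-downs labelled Cre+, 9403767 to 12181960 in the inputs labelled Cre- and 14861795 to 18633365 in the pull-downs labelled Cre-. The driver gene Runx3 had 22.7, 2.07 and 11.1 normalised counts in the Cre+ labelled pull-downs against 4.27, 2.39 and 5.55 in their inputs, and 20.7, 35.9 and 51.2 in the Cre- labelled pull-downs against 4.68, 1.89 and 2.87 in theirs. Every Runx3 pull-down thus lay above its inputs only in the libraries labelled Cre-, which by their label carry no driver. The difference in Runx3 enrichment between labels did not pass (-1.93, FDR 0.297), and every direction between genotypes given here follows the labels as deposited. The paper reports a significant overlap of enriched genes between its Runx3-Cre+ cultures and Runx3-Cre+ ganglia, and a poorer match for its Cre- cultures. It also reports no detectable ribosomal RNA in pull-downs from ganglia of animals without Cre. Whether the genotype labels were exchanged was not tested. Below, Cre+ and Cre- stand for the libraries so labelled. The pull-down columns of the Cre+ table bear names that match titles of Cre- samples, and they were placed with the Cre+ group through the table named in the sample descriptions. The summed normalised count of 6 neuronal markers was 5256 to 6671 in the pull-downs labelled Cre+ against 8006 to 13108 in their inputs, and 17991 to 18774 against 8912 to 11052 in those labelled Cre-. Of these markers, 3 were called lower in Cre+ (Uchl1, Tubb3 and Stmn2) and 1 higher in Cre- (Snap25). Snap25 made up most of the sum, with 15063 to 16273 in the pull-downs labelled Cre-, while the median log2 fold change of the list there was -0.01 and Rbfox3 had 175, 186 and 165 against 308, 309 and 273 in the inputs. Of the other cell types, endothelial markers summed to 96.5 to 381 in the Cre+ pull-downs against 46.1 to 82.2 in the inputs (3 of 4 listed), and macrophage markers to 4.85 to 112 against 25.8 to 68.1 (2 of 6 listed). Fibroblast markers summed to 66.8 to 76.4 against 61.4 to 95.3 (4 of 6 listed). In Cre- the pull-down and input sums of these 3 lists overlapped, at 15.2 to 118 in all. Endothelial sums there were 15.2 to 112 against 58.3 to 87.7. Fibroblast sums were 25.1 to 89.4 against 77.3 to 95.5, with 1 marker called lower. The Cre- pull-down numbered 1 stood apart from the other pull-downs. It had Pecam1 at 35.7 against 3.31 and 4.67, Cdh5 at 48.0 against 4.99 and 6.23, and Sox10 at 26.9 against 7.28 and 2.30. Of the Schwann and satellite glia markers, the 5 listed in the Cre+ table summed to 171 to 329 in its pull-downs against 304 to 562 in its inputs. In Cre-, Apoe and Fabp7 were called lower, while S100b, which some neurons also express, had 445, 530.4 and 569 against 368, 287 and 301 (0.69, FDR 0.0144). None of the 6 markers of dividing cells was listed in the Cre+ table, and 3 were in the Cre- table, with sums of 2.34 to 10.7. The part of these differences in the motor results was not tested. In such bulk samples, fewer cells of a type and less RNA per cell cannot be told apart.

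Levels of the motor mRNAs are given as normalised counts, that is counts scaled to 1000000 per library with the TMM factor included. Between genes they were compared only after dividing by the length of the listed transcript in kb. Counts were made per gene, and the exons of a gene can cover far more bases than its listed transcript. Kif1b, for example, had 17608 exon bases against 5992 in the transcript, and Dync1i2 8280 against 2631. The order between genes is thus approximate. In the inputs labelled Cre-, the level per kb ran from 608 for Dynlrb1, a light chain of dynein, to 0.703 for Kif9, and the same first place in the inputs labelled Cre+ was taken by Dynlrb1 with 723. Behind it came the axonal cargo motors Kif1a, Kif21a, Kif1b and Kif5a together with the dynein light chain Dynlt3 and the kinesin light chain Klc1, at 243 to 311 per kb, and each of these 6 overlapped its neighbour in the order. In the inputs labelled Cre-, a gap with no overlap followed, and Dync1i2, an intermediate chain of dynein, stood at 167 per kb. In those labelled Cre+ there was no such gap, Kif1b reaching down to 151 and Dync1i2 up to 159 per kb. In the inputs labelled Cre-, the heavy chain of dynein, Dync1h1, had 39.9 per kb and overlapped the light intermediate chain Dync1li1 with 39.9. At the lower end, Dync2h1, Kif1c and Kif21b lay between 1.29 and 1.37 per kb, and their ranges overlapped. The motor genes took 1.31% to 1.65% of all counts in the 6 inputs and 1.95% to 2.34% in the 6 pull-downs, so that every pull-down exceeded every input. This sum is weighted toward abundant genes, above all Kif1a, with mean normalised counts of 2551 in the Cre- inputs and 4480 in the Cre- pull-downs. It does not stand for the whole class, since 17 of 40 motor genes in Cre+ and 17 of 42 in Cre- had a negative log2 fold change.

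The inputs of both labels were compared first, to see whether the cultures already differed in motor mRNAs. No motor gene was called, with log2 differences (Cre+ over Cre-) from -0.51 for Dync2li1 to 0.63 for Dctn3 and a lowest false discovery rate (FDR) of 0.999. The edgeR quasi-likelihood test called 0 of 40 motor genes and 0 of 9006 genes in all (0%), DESeq2 called 0 motor genes, and 0 motor genes reached an unadjusted p under 0.05. In 1 member, Kifc2, the 3 libraries of each label did not overlap with Cre+ below (2.50%, against 3.60% of all genes), and in 0 with Cre+ above (against 4.13%).

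A gene was tested where the authors' mean FPKM in the table exceeded 1, and called at FDR below 0.1 with a change of at least 2-fold. All 40 motor genes of the Cre+ table passed the filter, and 42 of 55 in the Cre- table. The 13 that did not were Dynlt1f, Kif4, Kif7, Kif11, Kif15, Kif18a, Kif20b, Kif23, Kif24, Kif26a, Kif26b, Kif27 and Klc3, mostly kinesins of the mitotic spindle or the cilium, with 0 to 162 counts per library. Kif4, a motor of chromosome arms, had 74, 15 and 35 counts in the pull-downs labelled Cre- against 6, 0 and 3 in the inputs, and was called higher once the filter was dropped (3.23, FDR 0.0868).

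In the libraries labelled Cre+, 4 of 40 motor genes were called higher in the pull-down than in the input (10.0%, against 5.17% of all 8947 genes tested). They were Dync1h1, Kif1b, Kif21a and Kif1a. Called lower were 2 of 40 (5.00%, against 2.49%), Dctn3 and Dynlrb1. On FDR alone, with no fold limit, 4 were higher (10.0%, against 5.39%) and 3 lower (against 2.59%). The 40 motor genes had a median log2 fold change of 0.31, where all genes had 0.08, and with scaling by library size alone these medians were -0.14 and -0.36. Pull-down and input libraries did not overlap in 8 motor genes with the pull-down above (20.0%, against 15.5%) and in 6 with it below (against 17.9%). With any 1 of the 3 inputs labelled Cre+ left out, no gene at all was called in this comparison.

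In the libraries labelled Cre-, 5 of 42 were called higher (11.9%, against 6.06% of all 11526 genes tested), namely Kif21b, Kif1b, Dync2h1, Dync1h1 and Dync1i1. The count of motor genes called lower was 0 (against 5.93%) by the edgeR quasi-likelihood test, by DESeq2 and by the edgeR exact test alike, while 4 had a lower value at an unadjusted p under 0.05. On FDR alone, 13 were higher (31.0%, against 13%) and 3 lower (7.14%, against 11.1%). The median was 0.22 over the 42 and -0.04 over all genes, or -0.02 and -0.27 with scaling by library size alone. Pull-down and input did not overlap in 16 with the pull-down above (38.1%, against 18.2%) and in 6 with it below (14.3%, against 18.6%). Dync1h1 and Kif1b were the 2 genes called higher under both labels, although in Cre- Dync1h1 did not pass in the fit of all 12 libraries (FDR 0.103) and Kif1b fell short of 2-fold with library-size scaling.

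**Figure D1:**
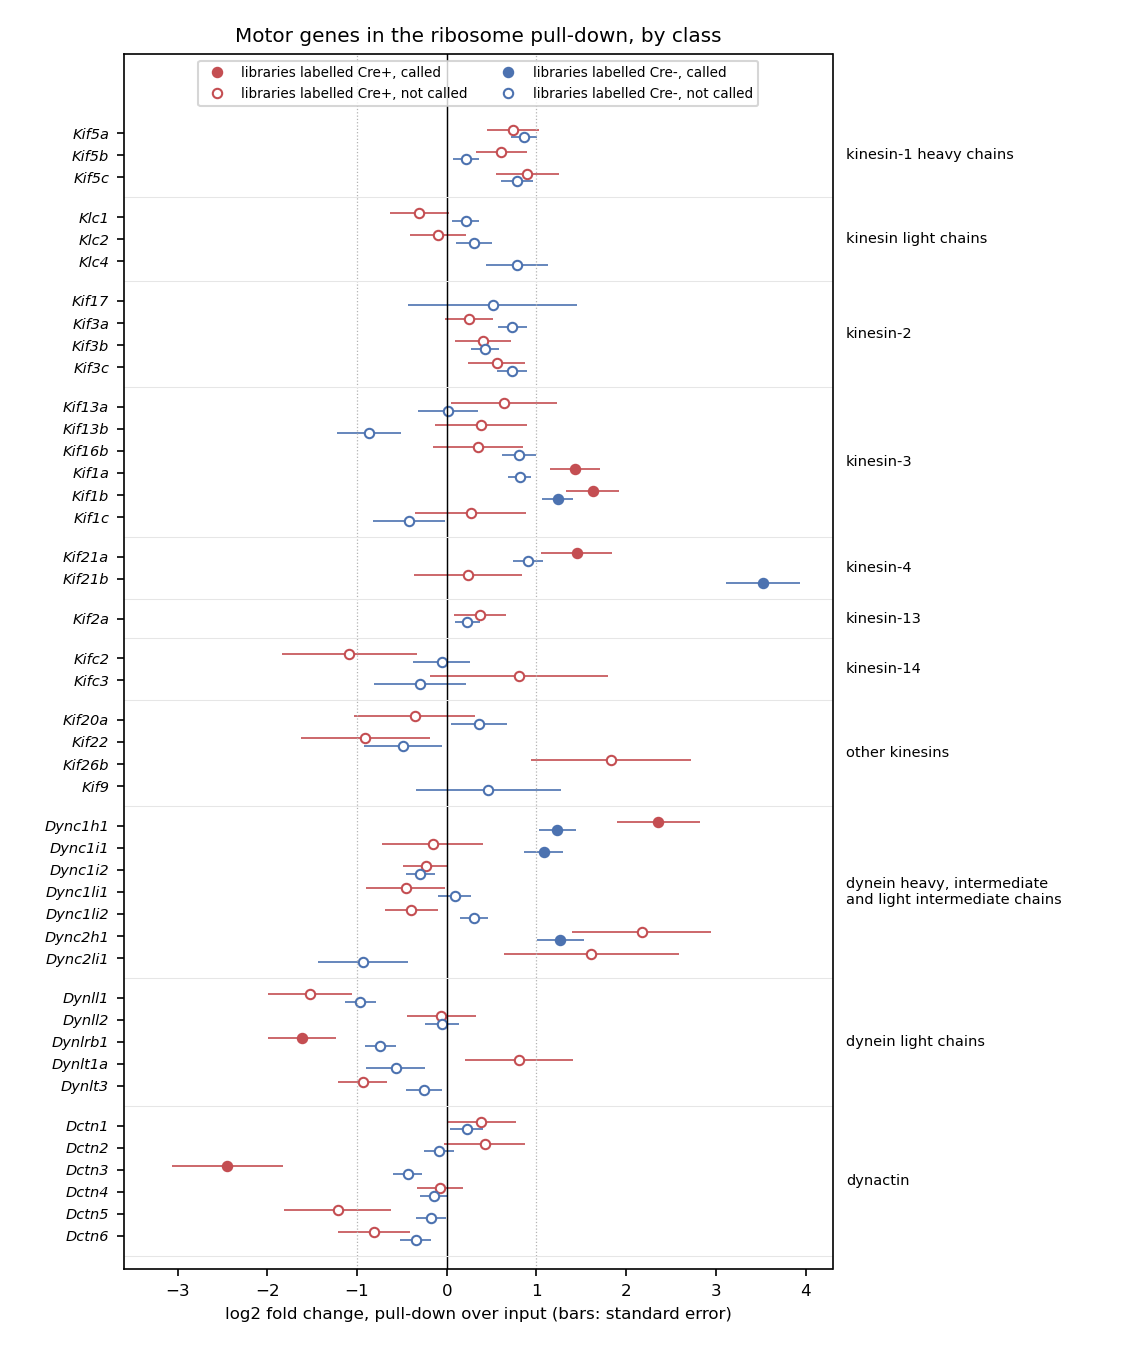
Log2 fold change of pull-down over input for every tested motor gene, by class, with the standard error as bars, in red for libraries labelled Cre+ and in blue for those labelled Cre-. Filled points were called at FDR below 0.1 and 2-fold, and dotted lines mark a 2-fold change. The kinesin heavy chains lie mostly to the right of 0, the dynein light chains and the small dynactin subunits mostly to the left, and Kif21b is far out under the Cre- label alone. With scaling by library size alone every point moves left, the median of all genes then being -0.36 in Cre+ and -0.27 in Cre-.

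Kinesin-1 is the main carrier of mitochondria and vesicles into the axon, and its heavy chains are Kif5a and Kif5c, made mostly in neurons, and the broadly made Kif5b. None of the 3 was called under either label, and all 3 had positive values under both, apart from Kif5b in Cre- with library-size scaling (-0.02). In Cre-, Kif5a had 1684, 1911 and 1688 normalised counts in the pull-downs against 850.2, 1105 and 960.4 in the inputs, and passed on FDR alone (log2 fold change 0.86 ± 0.14 SE, FDR 0.00266). Kif5c, with 1069, 1589.6 and 1668 against 728, 907 and 879, passed likewise (0.78 ± 0.18, FDR 0.0141). For Kif5b, 629, 658 and 806 against 586, 614 and 603 gave 0.22 ± 0.14 (FDR 0.342). The groups did not overlap in any of the 3, but the Kif5b gap was small beside the spread of its pull-downs.

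In Cre+, Kif5a had 1057, 1928 and 1800.1 in the pull-downs and 845, 1098 and 931 in the inputs (0.74 ± 0.29, FDR 0.167). Kif5c had 844, 1831 and 1621 against 516, 866 and 919.9 (0.90 ± 0.35, FDR 0.166). The pull-down numbered 1 sat among the inputs in both genes, while the other two lay above. Without it, Kif5c was called (1.21, FDR 0.0344). Kif5b had 645, 962 and 927 against 412, 610.0 and 639.7, which did not overlap (0.61 ± 0.28, FDR 0.229).

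The kinesin light chains bind cargo to kinesin-1. Klc1 had 687, 741 and 779 in the Cre- labelled pull-downs against 527, 714 and 663 in the inputs (0.21 ± 0.15, FDR 0.376), and 281, 599 and 609 against 545, 599 and 694 in Cre+ (-0.30 ± 0.33, FDR 0.596). Pull-down and input overlapped under both labels. Klc2 was at 0.30 in Cre- and -0.09 in Cre+, and Klc4, listed in the Cre- table only, at 0.78 (FDR 0.150). No light chain passed on FDR.

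Kinesin-2 works as a complex of Kif3a with Kif3b or Kif3c, and Kif17 forms a motor of its own. In Cre-, Kif3a, Kif3b and Kif3c all passed on FDR alone, and in none did pull-down and input overlap. Kif3a had 627, 595 and 453 against 338, 368 and 302 (0.73 ± 0.16, FDR 0.0123). Kif3c had 391, 428 and 459.5 against 206, 278 and 286 (0.73 ± 0.17, FDR 0.0127), and 40.7% of its exon bases lie under exons of other genes on the opposite strand. Kif3b had the smallest gap, 186, 167 and 185 against 123, 136 and 142 (0.42 ± 0.15, FDR 0.0825). Kif17 was listed in the Cre- table only and near the detection limit, at 0.15 to 7.11 normalised counts.

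Under the Cre+ label the same 3 genes were not called and their groups overlapped. Values were 398, 315 and 264 against 248, 289 and 285 for Kif3a (0.25 ± 0.26, FDR 0.590), 183, 199.6 and 116 against 117, 117 and 142 for Kif3b (0.40 ± 0.31, FDR 0.460), and 242, 462 and 448 against 203, 273 and 307 for Kif3c (0.56 ± 0.32, FDR 0.317). The difference between labels was not called for any of them.

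Kinesin-3 holds the carriers of synaptic vesicle precursors, Kif1a and Kif1b, and both stood well above the input under both labels. Kif1b (chr4:149176319-149307773, GRCm38, minus strand) had 4831, 3704.5 and 4083 in the Cre+ labelled pull-downs against 902, 1596 and 1585.5 in the inputs, a 3.09-fold rise (1.63 ± 0.29, FDR 0.0390). In Cre- it had 3012, 3762 and 3527 against 1129, 1738 and 1508.5, or 2.35-fold (1.24 ± 0.17, FDR 0.000869), and just under 2-fold with library-size scaling (0.997, FDR 0.00223). The lowest pull-down, 3012, was thus far above the highest input, 1738.

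Kif1a (chr1:93015455-93102039, minus strand) rose 2.69-fold in Cre+, from 1697, 2545 and 2159 to 6977, 4425 and 5817 (1.43 ± 0.28, FDR 0.0434), and fell just short of 2-fold with library-size scaling (0.97). In Cre- the change was 1.76-fold, from 2420.0, 2736 and 2498 to 4775, 4525 and 4141, which passed on FDR but not the 2-fold limit (0.81 ± 0.13, FDR 0.00166). Groups did not overlap under either label. The other members of the class had group means of at most 51.8 normalised counts. Of these, Kif16b, an endosome motor, passed on FDR alone in Cre- (0.81, FDR 0.0169), and Kif13b had a negative value there (-0.87, FDR 0.120) and a positive one in Cre+ (0.38, FDR 0.680). Kif13a and Kif1c did not pass under either label.

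The kinesin-4 class was represented by Kif21a and Kif21b, motors that also restrain microtubule growth, while Kif4, Kif7 and Kif27 of the same class were below the filter. Kif21a (chr15:90933275-91050382, minus strand), an abundant gene of the cultures, had 2181, 6244 and 4208.5 in the Cre+ labelled pull-downs against 1060.2, 1815 and 1757 (1.45 ± 0.39, FDR 0.0851), a call that was lost without the pull-down numbered 2 (1.08, FDR 0.140) or 3 (1.48, FDR 0.121), or with library-size scaling (1.04, FDR 0.161). In Cre- it had 2687, 3810.3 and 2854 against 1431.5, 1865 and 1704 (0.90 ± 0.17, FDR 0.00446, short of 2-fold, but 1.02 and called without the pull-down numbered 1). All pull-downs lay above all inputs under both labels.

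Kif21b (chr1:136131390-136178001, plus strand), by contrast, was a rare transcript in the inputs, at 1.29 and 1.13 per kb, and raised only in the Cre- labelled pull-downs, at 14.8 per kb. These held 86.9, 148 and 169 normalised counts (1565, 2194 and 2285 raw counts), against 19.7, 6.00 and 9.58 (202, 73 and 127 raw counts) in their inputs. In the libraries labelled Cre+, the pull-downs held 9.54, 12.3 and 14.7 and the inputs 13.7, 6.83 and 10.5. All 3 pull-downs labelled Cre- lay above all other 9 libraries. The change was 11.5-fold in Cre- (3.53 ± 0.41, FDR 0.00034) and 1.18-fold in Cre+ (0.24 ± 0.60, FDR 0.847). The proprioceptor markers moved along, 5 of 5 being called higher in Cre-, where their summed level was 1227 to 1524 in pull-downs against 208 to 289 in inputs. In Cre+, where Pvalb was not analysed, 1 of 4 was called higher, and the sums were 345 to 504 and 176 to 237. Ntrk3 carried that rise, with 341, 261 and 258 against 49.9, 72.8 and 66.0 (2.19, FDR 0.0269), while Spp1 was at -0.95 (FDR 0.215) and Runx3 and Etv1 overlapped their inputs. Their part in the Kif21b result was not tested.

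Among the remaining kinesins, none was called. Kif2a, the kinesin-13 that takes microtubules apart, had 362, 417 and 415 in the Cre- labelled pull-downs against 327, 358 and 333 (0.23 ± 0.14, FDR 0.296), and 297, 338 and 512 against 258, 302 and 327 in Cre+ (0.37 ± 0.29, FDR 0.453). The C-terminal motors Kifc2 and Kifc3 were at -0.06 and -0.30 in Cre- and at -1.08 and 0.81 in Cre+. Kif20a and Kif22, known from cell division, had group means of 5.22 to 14.96 normalised counts and did not pass. Kif26b, tested in Cre+ only, had 34.3, 2.44 and 23.8 against 3.75, 7.67 and 5.55 (1.83 ± 0.89, FDR 0.245), with pull-downs on both sides of the inputs. It was called higher in the fit of all 12 libraries (1.82, FDR 0.0846) and without the pull-down numbered 2 (2.37, FDR 0.0783). Its level per kb averaged 0.412 in the Cre+ inputs and 1.47 in the pull-downs, so it passed the filter mainly through the latter. Since the filter favoured a higher value, no conclusion is drawn from these calls.

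**Figure D2:**
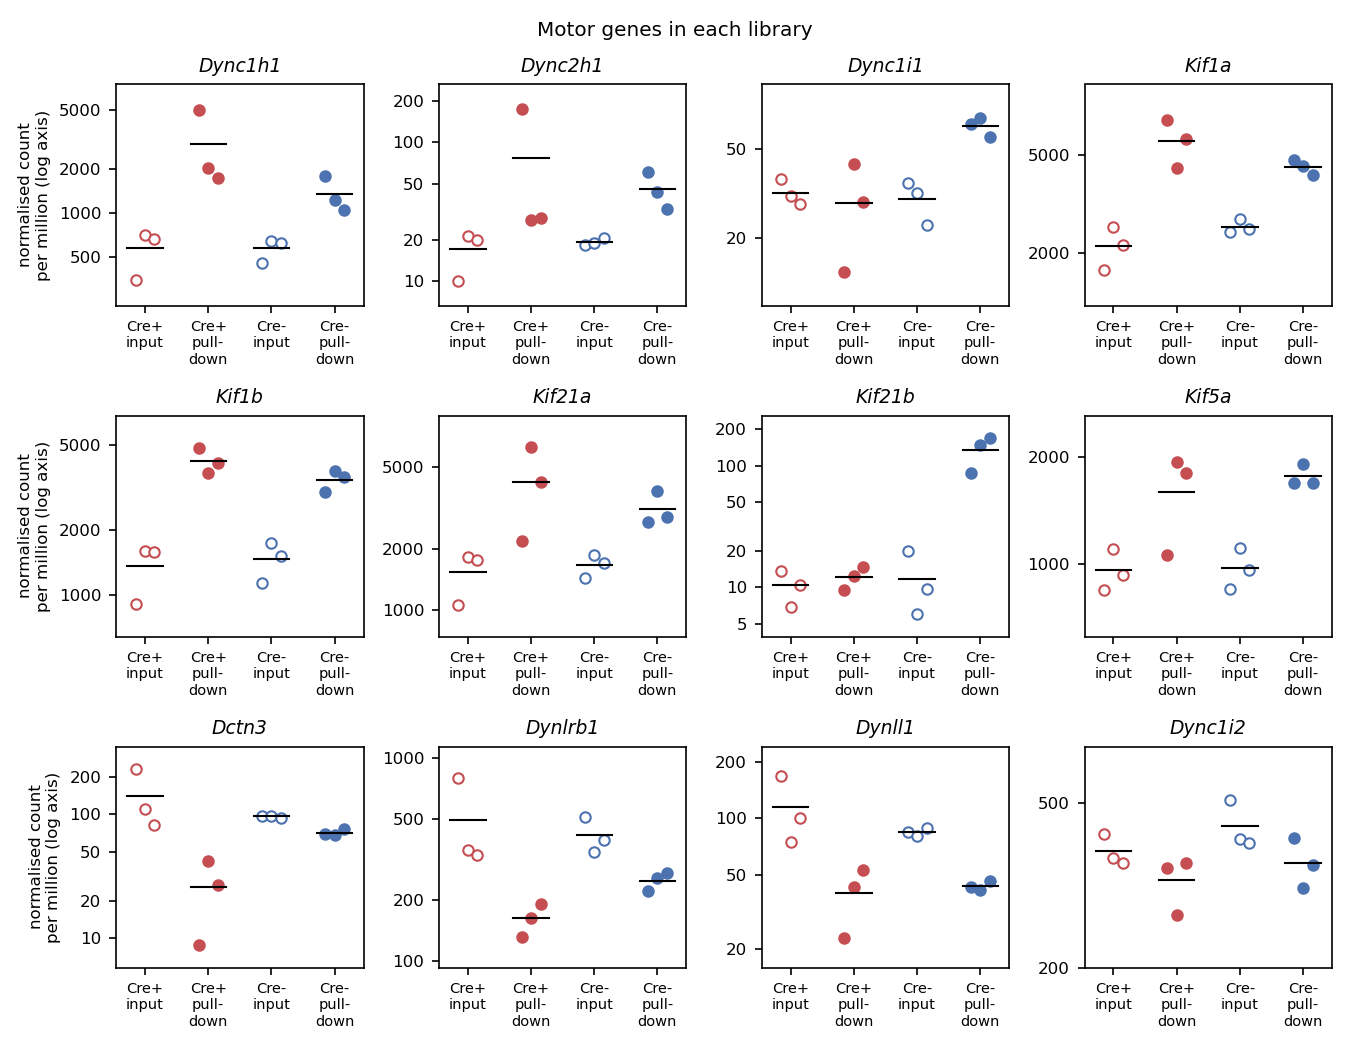
Normalised counts (scaled to 1000000 per library) of 12 motor genes in each of the 12 libraries, on log axes that differ between panels. Open circles are inputs, filled circles pull-downs, and lines the mean of 3. Kif21b is raised in the 3 pull-downs labelled Cre- alone, and the Dync1h1 and Dync2h1 values of the Cre+ pull-down numbered 1 stand apart from the other two.

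Cytoplasmic dynein is built on a pair of very large heavy chains, Dync1h1, to which intermediate, light intermediate and light chains attach. Dync1h1 (chr12:110601395-110666944, plus strand) was called higher under both labels. In Cre+ the pull-downs had 5061.5, 2013 and 1718 against 343, 706 and 663, or 5.14-fold (2.36 ± 0.46, FDR 0.0446). In Cre- they had 1766, 1213.5 and 1049 against 454, 638 and 622, or 2.35-fold (1.23 ± 0.21, FDR 0.0028). No pull-down overlapped an input, and the Cre+ pull-down numbered 1 was over 2-fold above the other two. Leaving it out gave 1.75 (FDR 0.0183).

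Dync2h1 (chr9:6928550-7178306, minus strand), the heavy chain of the dynein that runs inside cilia, was a scarce transcript. It had 61.5, 43.7 and 33.3 in the Cre- labelled pull-downs against 18.1, 18.9 and 20.5 (1.27 ± 0.26, FDR 0.00798, or 0.333 in a fit of all 12 libraries). In Cre+ it had 174, 27.8 and 28.7 against 10.0, 21.2 and 19.8, which was not called (2.18 ± 0.77, FDR 0.138). Without the pull-down of 174 the Cre+ value was 0.77, while it was called without the pull-down numbered 2 (2.59, FDR 0.0969), with DESeq2 (FDR 0.022), by the exact test (FDR 0.0652) and in the fit of all 12 libraries (FDR 0.0262). Its partner Dync2li1 had 44.2, 3.53 and 4.5 in the Cre+ pull-downs, the same library again standing out (1.61 ± 0.97, FDR 0.339), and was at -0.93 (FDR 0.230) in Cre-.

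The intermediate chains link dynein to dynactin, Dync1i1 being made mainly in neurons and Dync1i2 in most cells. Dync1i1 (chr6:5725600-6028039, plus strand) rose in Cre-, with 64.9, 68.9 and 56.5 against 35.2, 31.9 and 23.0 (1.08 ± 0.22, FDR 0.00775). In Cre+ its pull-downs of 14.1, 43.0 and 29.1 spanned the inputs of 36.6, 30.9 and 28.4 (-0.15 ± 0.56, FDR 0.896). Without the Cre- input numbered 3 the change fell short of 2-fold (0.92, FDR 0.0408), as it did with library-size scaling (0.84, FDR 0.023), and in a fit of all 12 libraries its FDR was 0.185.

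Dync1i2 was not higher in any pull-down group. It had 409.6, 311 and 354 against 508, 408 and 400.4 in Cre- (-0.29 ± 0.16, FDR 0.249), and 347, 268 and 358.0 against 419.5, 368 and 358.1 in Cre+ (-0.23 ± 0.25, FDR 0.594), where the nearest libraries all but met. The light intermediate chains, which bind the cargo adaptors, did not pass either. Dync1li1 had 131, 91.1 and 109 against 109.6, 97.7 and 104 in Cre- (0.09 ± 0.18, FDR 0.782), and 109.7, 49.1 and 41.2 against 107, 84.9 and 83.6 in Cre+ (-0.46 ± 0.44, FDR 0.552).

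For Dync1li2 the pull-downs labelled Cre- lay above the inputs without overlap, with 427, 493 and 468 against 313, 404 and 412 (0.30 ± 0.16, FDR 0.218). In Cre+, 244, 262 and 377 against 294, 392 and 476 overlapped (-0.40 ± 0.29, FDR 0.434). All 4 intermediate and light intermediate chains of dynein 1 thus had negative values in Cre+, none of which passed.

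Of the 5 dynein light chains tested, 1 was called lower in Cre+ (against 2.49% of all genes) and 0 in Cre- (against 5.93%). Called higher were 0 of 5 under either label (against 5.17% and 6.06% of all genes) by the edgeR quasi-likelihood test, DESeq2 or the exact test, and 0 had a higher value at an unadjusted p under 0.05. Dynlrb1 (chr2:155236533-155250277, plus strand), a roadblock light chain, fell in Cre+, with 132, 163 and 191 against 799.7, 353 and 332 (-1.61 ± 0.38, FDR 0.0636, or 0.102 without the pull-down numbered 2). In Cre- it had 222, 255 and 269 against 509, 346 and 392, a smaller drop that passed on FDR alone (-0.74 ± 0.17, FDR 0.0152). All 6 pull-downs were below all 6 inputs, and the input of 799.7 was over 2-fold above the other inputs of its label.

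Dynll1, a light chain that also serves as a hub protein outside dynein, had 43.0, 41.1 and 46.2 in the Cre- labelled pull-downs against 84.4, 80.6 and 89.1 (-0.96 ± 0.17, FDR 0.00416), just short of 2-fold, and was called lower there with library-size scaling (-1.20, FDR 0.00144). In Cre+ it had 22.9, 43.0 and 53.2 against 168, 74.6 and 100.3 (-1.53 ± 0.47, FDR 0.103), and was called lower with DESeq2 (FDR 0.0286), the exact test (FDR 0.0451), the fit of all 12 libraries (FDR 0.0115) and library-size scaling (FDR 0.0584). For its close relative Dynll2, pull-down and input overlapped under both labels. It had 99.4, 157 and 130.2 against 125, 131.5 and 145 in Cre- (-0.05 ± 0.19, FDR 0.878), and 63.2, 154 and 154 against 132, 125 and 130.4 in Cre+ (-0.06 ± 0.38, FDR 0.940). Dynlt3 had -0.94 in Cre+ (FDR 0.0978, on FDR alone) and -0.26 in Cre- (FDR 0.423). Dynlt1a had 32.5, 12.9 and 18.2 in the Cre+ pull-downs, all above its inputs of 12.0, 11.6 and 12.7, without passing (0.81 ± 0.60, FDR 0.436). In Cre- its pull-downs all lay below the inputs (-0.57, FDR 0.265), and since it has near-identical copies its counts are uncertain.

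Dynactin joins dynein to its cargo. Of its 6 subunits tested, 0 were called higher under either label (against 5.17% and 6.06% of all genes) by the edgeR quasi-likelihood test, DESeq2 or the exact test, and 0 had a higher value at an unadjusted p under 0.05. Called lower was 1, Dctn3 in Cre+ (against 2.49%), and 0 in Cre- (against 5.93%). Dctn3 (chr4:41714798-41723163, minus strand), a small subunit of the shoulder, had 8.88, 41.8 and 26.8 in the Cre+ labelled pull-downs against 229.9, 109 and 82.3 in the inputs, or 5.44-fold lower (-2.44 ± 0.62, FDR 0.0722, or 0.119 without the pull-down numbered 3). In Cre- it had 68.9, 67.9 and 76.3 against 97.6, 97.1 and 93.2, a tight and small drop that passed on FDR alone (-0.43 ± 0.16, FDR 0.0953). The groups did not overlap under either label.

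Dctn1, the large p150 subunit that grips the microtubule, had 65.5, 74.9 and 65.5 against 54.6, 68.8 and 53.2 in Cre- (0.22 ± 0.19, FDR 0.461), and 51.9, 70.3 and 91.3 against 57.5, 56.8 and 48.9 in Cre+ (0.39 ± 0.39, FDR 0.568). Dctn2, the p50 subunit, had 98.3, 106 and 96.1 against 99.1, 122 and 96.5 in Cre- (-0.08 ± 0.17, FDR 0.782). In Cre+ it had 243, 66.6 and 108 against 110.1, 100.3 and 101 (0.42 ± 0.45, FDR 0.595), the pull-down numbered 1 again being the high one. The pointed-end subunits Dctn5 and Dctn6 were at -1.22 and -0.81 in Cre+ and at -0.18 and -0.35 in Cre-, and did not pass. In Cre+, Dctn5 was called lower in the fit of all 12 libraries (FDR 0.0835), and Dctn6 with library-size scaling (FDR 0.0927) and without the pull-down numbered 1 (FDR 0.0879). Dctn4 was at -0.08 and -0.14.

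The Cre+ pull-down numbered 1 departed from its group more often than any other library. In 12 of the 40 motor genes it lay over 2-fold above (5 genes) or below (7 genes) both other pull-downs. Those above were Dctn2, Dync1h1, Dync1li1, Dync2h1 and Dync2li1, and those below were Dctn3, Dctn5, Dync1i1, Dynll2, Kifc2, Kifc3 and Klc1. In the other 11 libraries this held for 0 to 4 genes. The count was made for the motor genes only, so whether it is particular to them was not tested. Markers of other cell types stood apart in the same library, with the endothelial Pecam1 at 255 against 20.2 and 17.8 in the other pull-downs, Kdr at 64.5 against 16.4 and 13.7, and the macrophage marker Cd68 at 103 against 13.8 and 4.27. The glial marker Sox10 was at 104 against 47.8 and 9.58. Their part in the motor values was not tested. Without it, 5 motor genes were called higher (against 9.22% of all genes) and 4 lower (against 6.31%) in Cre+, so that calls rose over all genes too. These were Dync1h1, Kif1a, Kif1b, Kif21a and Kif5c, and Dctn3, Dctn6, Dynll1 and Dynlrb1.

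The difference in enrichment between the labels was tested as an interaction in a fit of all 12 libraries. Of 40 motor genes, 1 was called lower in Cre+ (2.50%, against 1.99% of 9006 genes) and 0 higher (against 2.23%). On FDR alone these counts were the same, against 2.08% and 2.25%. The 0 held for the edgeR quasi-likelihood test and for DESeq2, and 5 motor genes had a higher value at an unadjusted p under 0.05. The gene called was Kif21b, with a difference of -3.25 ± 0.65 on the log2 scale (FDR 0.0333), or 9.49-fold less enrichment under the Cre+ label. The call was lost when the Cre- input numbered 2 (-2.93, FDR 0.105), the Cre- input numbered 3 (-3.12, FDR 0.113) or the Cre- pull-down numbered 3 (-3.05, FDR 0.136) was left out.

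The other large differences did not pass. Dctn3 was at -1.97 ± 0.66 (FDR 0.140), called with DESeq2 (-1.95, FDR 0.0505). Dync1i1, called in Cre- and not in Cre+, differed by -1.19 ± 0.56 (FDR 0.257), and Dync1h1 by 1.15 ± 0.53 (FDR 0.252), or 0.52 without the Cre+ pull-down numbered 1. Kif1a, Kif1b and Kif21a differed by 0.64, 0.42 and 0.58. Toward the Cre+ side, Dync2li1 was at 2.56 (FDR 0.243), Dynlt1a at 1.40 (FDR 0.245) and Kif13b at 1.28 (FDR 0.250). Calls were gained without the Cre+ pull-down numbered 1 (Dctn3 and Dync1li1) and without that numbered 2 (Dctn3, Dync1i1, Dync2li1, Dynlt1a and Kif26b). Kif26b was below the filter in the Cre- table (mean FPKM 0.97) and above it in Cre+ mainly through its pull-downs. The filter thus favoured a value higher in Cre+, and no conclusion is drawn from the Kif26b call. Over the 40 motor genes the median difference was 0.02, against 0.13 over all genes, and both turned negative with library-size scaling, at -0.20 and -0.11.

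Within pairs and trios of related motors, the share of each gene was computed from counts per kb in each library, a measure that does not depend on the level of the pair. The size of a share depends on the transcript lengths used. In all, 20 shares were compared by a two-sided exact permutation test of 3 against 3 libraries, which cannot give a p below 0.1, or below 0.333 after Benjamini-Hochberg adjustment over the 20. The groups were fully apart in 6 of the 20 (each with exact p = 0.1), of which 5 were under the Cre- label. Shares were not computed for other gene pairs. For single genes over all those tested, the pull-down lay fully above the input in 15.5% and fully below in 17.9% in Cre+. In Cre- these were 18.2% and 18.6%. Groups fully apart were thus common among all genes, and the count is not read as a trait of the motors.

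Dynll1 made up a smaller part of the Dynll1 and Dynll2 pair in the pull-downs than in the inputs under both labels. Its share was 50.5% ± 9.45 (SD, n = 3) in the inputs labelled Cre+ and 28.5% ± 2.77 in the pull-downs. In Cre- it was 43.6% ± 1.32 and 29.6% ± 5.18. No pull-down share, 34.5% at most, reached the lowest input share of 42.2%.

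The neuronal intermediate chain Dync1i1 made up 6.46% ± 0.919 of both intermediate chains in the inputs labelled Cre- and 15.4% ± 2.58 in the pull-downs. In Cre+ the pull-down shares were 3.94%, 13.96% and 7.60%, around input shares of 8.12%, 7.83% and 7.42%. Dync1i2 was the larger part in every library.

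Among the kinesin-1 heavy chains, Kif5b made up 21.5% ± 1.72 of the trio in the inputs labelled Cre- and 15.1% ± 1.71 in the pull-downs, without overlap, and 20.6% ± 1.64 and 19.1% ± 2.17 in Cre+. Kif5a held 49.2% to 61.8% in all 12 libraries, and for it and Kif5c pull-down and input shares overlapped under both labels. Kif3c took 61.2% ± 2.61 of the Kif3b and Kif3c pair in the inputs labelled Cre- and 66.3% ± 2.40 in the pull-downs, a small step with no overlap. Kif21b was 0.504% ± 0.368 of the Kif21 pair in the inputs labelled Cre- and 2.84% ± 0.892 in the pull-downs. For Kif1a against Kif1b, Klc1 against Klc2 and Dync1li1 against Dync1li2, pull-down and input shares overlapped under both labels.

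**Figure D3:**
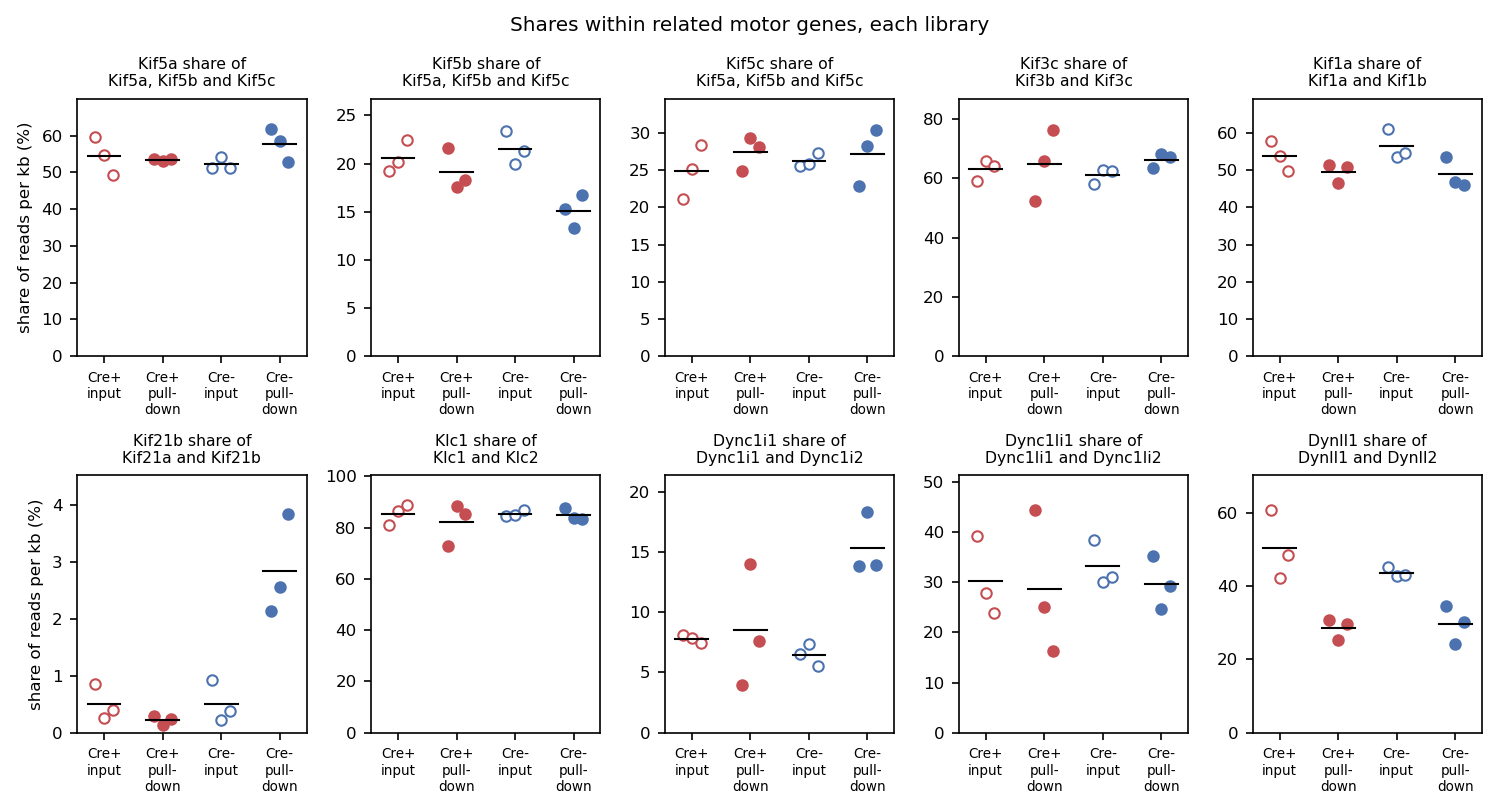
Share of a gene within its pair or trio, in percent of counts per kb of transcript, for each library. Open circles are inputs, filled circles pull-downs, lines the mean of 3, and each axis starts at 0. The Dynll1 share is lower in all 6 pull-downs than in any input, and the Dync1i1 and Kif21b shares lie above the inputs in all 3 pull-downs only under the Cre- label.

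The motor genes differ widely in transcript length, from 0.684 kb for Dynlrb1 to 14.3 kb for Dync1h1, and the fold changes followed this order. Of the 12 motor genes of 6 kb or more, all 12 had positive values in Cre+, with a median of 0.77 (library-size scaling turned 3 of them, Kif16b to -0.10, Kif1c to -0.17 and Kif21b to -0.19), while the 4 shorter than 1.5 kb had a median of -1.21. The 12 include Kif26b (13.7 kb, 1.83 in Cre+), which passed the filter mainly through its Cre+ pull-downs. Its positive value was favoured by the filter, and no conclusion is drawn from it. In Cre-, 10 of 11 were positive at 6 kb or more, with a median of 0.81 (library-size scaling turned Kif13a to -0.22 and Kif5b to -0.022). Under 1.5 kb, 0 of 4 were positive, with a median of -0.59. The same order was present over all genes tested, with medians of 0.96 at 6 kb or more and -0.99 under 1.5 kb in Cre+, and of 0.41 and -0.42 in Cre-.

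At 6 kb or more in Cre+, 3 of 12 motor genes were called higher, and 281 of all 1227 genes (22.9%), so that with this limit the motor count stood near that of other long genes. In Cre- they were 3 of 11 and 197 of 1257 (15.7%), a larger part of the motor genes than of all genes. Kif1b, called higher under both labels, fell just below the limit, with 5992 bases in its listed transcript and 17608 exon bases. The motor counts thus depend on where the limit is set, and they rest on few genes. Across genes, Pearson's r of the log2 fold change with log2 length was 0.75 over the 40 motor genes and 0.52 over 8076 genes in Cre+, and 0.61 over 42 and 0.33 over 10250 in Cre-. Genes are not independent replicates, and all of these points share the same libraries. The 40 motor genes of Cre+ include Kif26b, whose value the filter favoured. Among the motor genes that departed from the order were Dync1i1, called higher in Cre- at 2.60 kb, and Kif21b, at 0.24 in Cre+ with 9.12 kb. The part of length in the motor results was not tested.

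**Figure D4:**
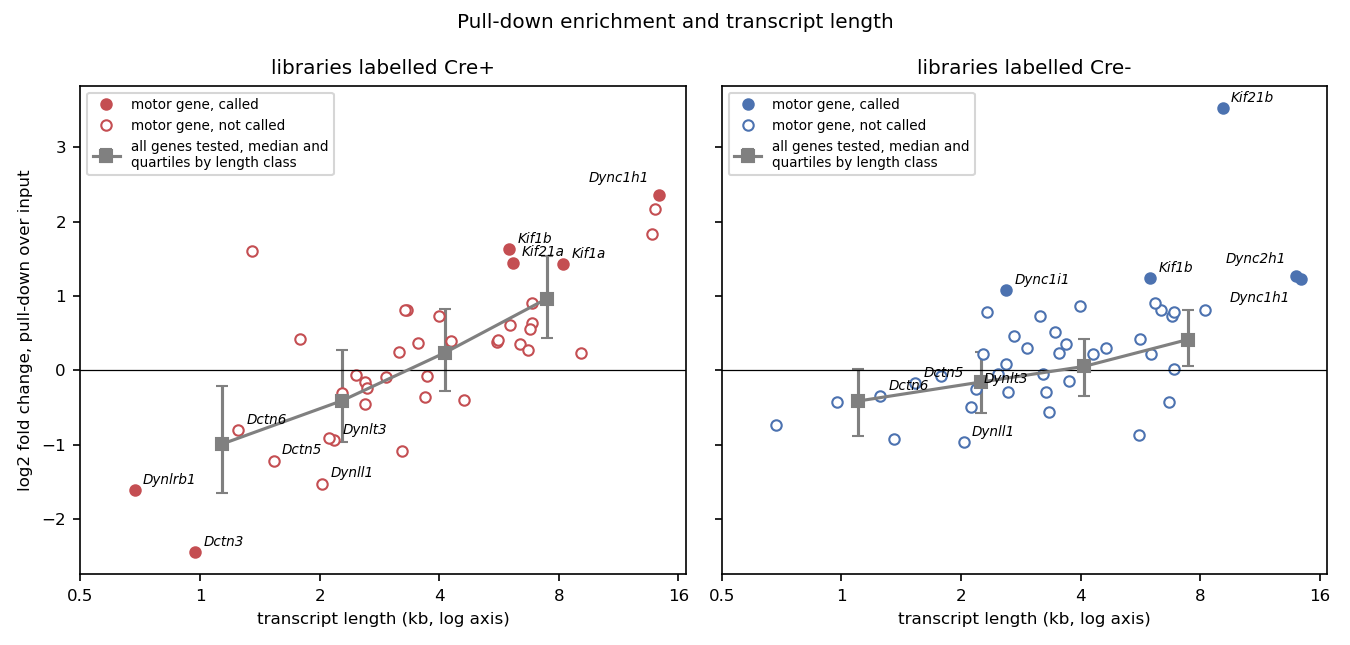
Log2 fold change of pull-down over input against transcript length in kb on a log axis, for the motor genes (circles, filled where called) and for all genes tested (grey squares at the median of each length class, with quartiles). Medians over all genes run from -0.99 to 0.96 in Cre+ and from -0.42 to 0.41 in Cre-, and Dync1i1 and Kif21b lie far above them in Cre-.

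Motors are tied to cargo by adaptors and regulators, of which a list of 38 was examined beside the motors. Of the 28 tested in Cre+, 2 were called higher (against 5.17% of all genes) and 1 lower (against 2.49%), counts near the background. With 1 library left out the higher count ran from 0, without any 1 of the inputs, to 5, without the pull-down numbered 1, and the lower count from 0 to 2, its highest without the pull-down numbered 1 or 2. The shares over all genes moved too, from 0% without any 1 input to 9.22% higher and 6.31% lower without the pull-down numbered 1. Trak1, which docks mitochondria on kinesin-1, had 430 ± 136 normalised counts in the pull-downs against 179 ± 9.48 (1.26, FDR 0.0636). Madd, an adaptor of the Kif1 motors, had 497 ± 218 against 176 ± 43.5 (1.5, FDR 0.0744), and Fez1, a kinesin-1 adaptor, fell to 46.9 ± 19.3 from 156 ± 57.0 (-1.73, FDR 0.0728).

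Of the 30 tested in Cre-, 2 were called higher (against 6.06% of all genes) and 0 lower (against 5.93%), again near the background, and with 1 library left out 1 to 3 were higher (1 without the input numbered 1 or the pull-down numbered 2) and 0 to 1 lower (1 without the pull-down numbered 1). The 0 held for the edgeR quasi-likelihood test, DESeq2 and the exact test, and 1, Fez1, had a lower value at an unadjusted p under 0.05. With 1 library left out, the shares over all genes ran from 4.97% to 7.1% higher and from 4.55% to 9.23% lower. Clstn1, a kinesin-1 cargo receptor, had 333 ± 44.5 against 156 ± 25.3 (1.10, FDR 0.00203), and Snph, which anchors mitochondria to axonal microtubules, had 106 ± 11.8 against 48.5 ± 1.62 (1.13, FDR 0.00166). On FDR alone 8 adaptors were higher (against 13% of all genes), among them Kifap3, the accessory subunit of kinesin-2, at 636 ± 70.7 against 325 ± 29.6 (0.97, FDR 0.00168). In Cre-, Kifap3 thus passed the FDR limit as did its partners Kif3a, Kif3b and Kif3c.

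The interaction was called for 2 of 28 adaptors (against 1.99% of all genes), both with less enrichment under the Cre+ label, a count that ran from 0 without the Cre+ input numbered 2 to 3 without the Cre+ pull-down numbered 1. Over all genes the share with less enrichment in Cre+ ran from 0.333% to 7.78% with 1 library left out. Kifap3 differed by -1.10 ± 0.26 (FDR 0.0598), and Clstn1 by -1.22 ± 0.31 (FDR 0.0713). In Cre+ they had 285 ± 31.2 and 132 ± 22.1 in the pull-downs against 319 ± 30.03 and 148 ± 17.9 in the inputs.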

How the data were processed

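RNA of 12 samples (3 per genotype label and fraction) was amplified with an ultra-low-input kit and sequenced as read pairs. The authors aligned reads to mm10 with STAR and counted uniquely mapped fragments per RefSeq gene with HTSeq, and the deposited counts are raw. The submitters' processing notes also name CASAVA 1.8.2 and edgeR. Whether counting used strand is not given in the sources used here, so reads of Kif3c, Kif20a, Kifc3 or Kif2a and their antisense neighbours cannot be told apart. The 2 deposited tables, one per genotype label, also hold mean FPKM values by the authors, used only as a filter, and the authors' own fold changes, p-values and FDR, which were not used. A further 18 columns of per-sample values were not used. The Cre+ table held only genes with at least 5 counts in each library, and the Cre- table only genes with a sum of 14 or more and 5 in at least 1 library.

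Genes with a mean FPKM above 1 were normalised by TMM and tested with the quasi-likelihood test of edgeR 4.0.16 (R 4.3.3, Benjamini-Hochberg adjustment), within each genotype label and, for the difference, as an interaction over all 12 libraries. A call required an FDR below 0.1 and a 2-fold change. The standard error was taken from the fold change and its F statistic. Transcript lengths were those of the GENCODE transcript matched to the listed RefSeq transcript, the longest where several matched. They were found for 87.6% of genes and all 55 motor genes. Alternatives were DESeq2 1.42.0, edgeR's exact test, other filters, library-size scaling, no fold limit, a fit of all libraries, and each library left out. The tests were run on simulated counts drawn from the negative binomial model they assume, with dispersions fitted to these data. Such a run cannot show how the tests behave where real counts depart from that model. One marker gene is not reported here. Members and gene lists were chosen with earlier results of these data known. Values by library were given for members called in any comparison and for a set of main motor subunits, with other members given by class. Kif4, Kif26b, Dync2li1 and some scarce members were added after their values were seen, as were the members counted against libraries that stand apart. Counting error at the total counts given is small for the motor genes discussed, apart from those with few counts. Counts were not corrected for PCR duplicates.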

Additional observations from a re-analysis of the deposited data

Results flagged for a closer look

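Kif21b had an enrichment that differed between the genotype labels, by the interaction test of edgeR over all 12 libraries (-3.25 on the log2 scale, Cre+ minus Cre-, standard error 0.65, FDR 0.0333). In Cre- all 3 pull-downs lay above all 3 inputs, with means of 134.8 ± 42.8 (SD, n = 3) and 11.8 ± 7.11 normalised counts. In Cre+ the pull-downs and inputs overlapped, at 12.2 ± 2.56 and 10.3 ± 3.43. The difference ranged from -3.84 to -2.93 with 1 library left out, and its FDR from 0.014 to 0.136. The inputs of both labels overlapped in this gene. The direction follows the genotype labels as deposited, and the cause was not tested.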

How the results depend on the processing

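Of the counts of motor genes called, 85 values under alternative settings stayed within 1.5 times the main count and 25 did not. Scaling by library size alone, which moved the median of all genes to -0.36 in Cre+ and -0.27 in Cre-, gave 2 higher and 5 lower in Cre+ (against 2.18% and 7.99% of all genes) and 3 higher and 2 lower (Dynll1 and Kif13b) in Cre- (against 3.76% and 10.8%). A fit of all 12 libraries gave 6 higher (adding Dync2h1 and Kif26b) and 4 lower in Cre+ (adding Dynll1 and Dctn5), against 14% and 10.6% of all genes, and 2 higher in Cre- (Kif1b and Kif21b, while Dync1h1 had an FDR of 0.103), against 2.99%. Kif26b had passed the filter mainly through its Cre+ pull-downs, so no conclusion is drawn from its calls. Without the fold limit, 13 were higher and 3 lower in Cre-. DESeq2 gave 2 lower for the difference between labels (against 4.75%). With 1 library left out, calls in Cre+ ranged from 0 to 5 higher and from 0 to 4 lower, calls in Cre- from 4 to 6 higher and from 0 to 2 lower, and calls for the difference from 0 to 3 in either direction. The shares of all genes moved too, from 0% to 9.22% higher and 0% to 6.31% lower in Cre+, from 4.97% to 7.1% and 4.55% to 9.23% in Cre-, and from 0.111% to 8.02% and 0.333% to 7.78% for the difference. In Cre+ both counts were 0 without any 1 of the 3 inputs. The 2 lower in Cre- arose without its pull-down 1 (Dync2li1 and Kif13b). The difference had 3 higher and 3 lower without Cre+ pull-down 2, and 3 lower without Cre+ pull-down 1, and 0 lower without Cre- input 2, Cre- input 3 or Cre- pull-down 3. The causes were not tested.

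Of the values of the genes given by library, 21 changed sign, none of them called. In Cre+, DESeq2 gave Dynll2 0.0045, and library-size scaling gave -0.042 for Dctn1, -0.068 for Dctn2, -0.19 for Kif21b, -0.065 for Kif2a, -0.20 for Kif3a and -0.038 for Kif3b, and also turned Kif13b, Kif16b and Kif1c, so that 14 of 40 motor genes were positive in place of 23. In Cre-, library-size scaling gave -0.015 for Dctn1, -0.14 for Dync1li1, -0.0079 for Kif2a, -0.022 for Kif5b and -0.024 for Klc1, and also turned Kif13a (19 of 42 positive in place of 25). With 1 library left out, Dctn2 ranged from -0.21 to 0.77 and Dync1i1 from -0.54 to 0.21 in Cre+, with Dynll2 from -0.22 to 0.30 and Klc1 from -0.45 to 0.018. In Cre-, Dctn2 ranged from -0.15 to 0.033, Dync1li1 from -0.036 to 0.21 and Dynll2 from -0.22 to 0.12. The difference in Dync2h1 ranged from -0.49 to 1.32.

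With the replicate number as a block in Cre-, 5 motor genes were higher and 0 lower, as without it. Deviations of same-numbered libraries correlated at 0.094, 0.063 and 0.206 over 8077 genes, so the numbers were not taken as pairs, although each library correlated best with its own number. No paired analysis was possible in Cre+ because its pull-down columns could be tied to the group but not to single numbered samples, so that their numbers serve only as names. The depth limits statements on genes with few counts, such as Kif17 and Kif26b. The spread of the Cre+ libraries limits those on changes under 2-fold and on some larger ones. Dync2h1 (2.18, FDR 0.138) and Dctn5 (-1.22, FDR 0.248), for example, were not called in Cre+.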
